A study of Mus musculus with 4 samples.

Results

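The 10 genes described here form the core of the mammalian circadian clock: Clock, Arntl, Per1, Per2, Per3, Cry1, Cry2, Nr1d1, Nr1d2 and Dbp. They were chosen by gene symbol, and all 10 were found once each among the 22667 genes of the expression table. Each had at least 75 reads summed over the 4 libraries, as had 12497 genes in all, so every clock gene could be compared. Neuro-2a (N2a) is a mouse neuroblastoma cell line. The cells were given a non-targeting siRNA (siControl) or an siRNA to Arglu1 (siArglu1), a gene for a coactivator of the glucocorticoid receptor, for 48 h. They were then treated for 4 h with ethanol as vehicle (Veh) or with the synthetic glucocorticoid dexamethasone (Dex) at 100 nM. All 4 groups are the same line, both siControl groups carry a control siRNA, and mRNA of 3 cultures was pooled into 1 library per group. The groups therefore have no replicates, and differences between cultures cannot be separated from the treatments. No pair of libraries was tested, and the 95% intervals below cover counting error only. Where 4 values are given in library order, they are those of siControl Veh, then siControl Dex, then siArglu1 Veh, then siArglu1 Dex.

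The clock is a transcriptional feedback loop. CLOCK and ARNTL (also called BMAL1) bind as a pair to E-box sequences and switch on the Per and Cry genes, whose proteins return to the nucleus and repress the pair. In a second loop the nuclear receptors NR1D1 and NR1D2 (REV-ERB alpha and beta) repress Arntl, and the output factor DBP activates genes through D-box sequences. Glucocorticoids are among the signals that set the clocks of peripheral tissues, and Per1 is a well known target of the glucocorticoid receptor.

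Reads on genes ranged from 66074574 in siControl Veh to 86541444 in siArglu1 Dex. Arglu1 itself had 10165 and 11825 reads in the siControl libraries and 2637 and 3254 in the siArglu1 libraries, so its level in siArglu1 cells was 26.4% of control in vehicle (25.2 to 27.5%) and 22.5% in Dex (21.7 to 23.4%). Nr3c1, which encodes the glucocorticoid receptor, had a cRPKM (reads per kilobase of mappable transcript, scaled to library size) between 5.42 and 6.90. It was 6.90, 6.37, 5.42 and 5.96 in library order, lowest in siArglu1 Veh. The log2 ratio of siArglu1 to siControl for Nr3c1 was -0.32 in vehicle (-0.40 to -0.24) and -0.10 in Dex (-0.18 to -0.03). Of 15 markers of neuroblasts and sympathetic neurons, 13 reached a cRPKM of 1, and Nefl and Nefm were near 0. Their summed cRPKM was 1559.18 and 1603.0 in siControl cells and 2057.41 and 2063.69 in siArglu1 cells, and the part of this shift in the results below was not tested. The markers did not all move with the sum, since Th and Ddc were lower in siArglu1 cells in both vehicle and Dex. None of 8 markers of other cell types (leukocyte, macrophage, endothelial, hepatocyte, epithelial, astrocyte and fibroblast) reached a cRPKM of 1, and their sum lay between 0.96 and 1.64. In such bulk samples fewer cells with a transcript and less of it per cell cannot be told apart.

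All clock genes were expressed, at moderate to low levels. By mean cRPKM over the 4 libraries the order was Nr1d2 (18.5), Cry2 (11.2), Nr1d1 (9.04), Clock (8.18), Cry1 (6.74), Arntl (5.48), Per1 (4.85), Per2 (3.18), Per3 (2.45) and Dbp (2.23). Nr1d2 stood above 63.5% of the genes compared and Dbp above 21.2%. In siControl Veh the order differed in part, and 3 pairs of neighbours could not be told apart by their counting intervals: Cry2 and Nr1d1, Dbp and Per2, and Per3 and Per1. The genes also differed in how far they ranged across the libraries. The highest cRPKM was 8.84 times the lowest for Per1, 3.04 times for Cry1, 2.36 times for Dbp and 1.72 times for Nr1d1, and between 1.18 and 1.39 times for the other 6.

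**Figure D1:**
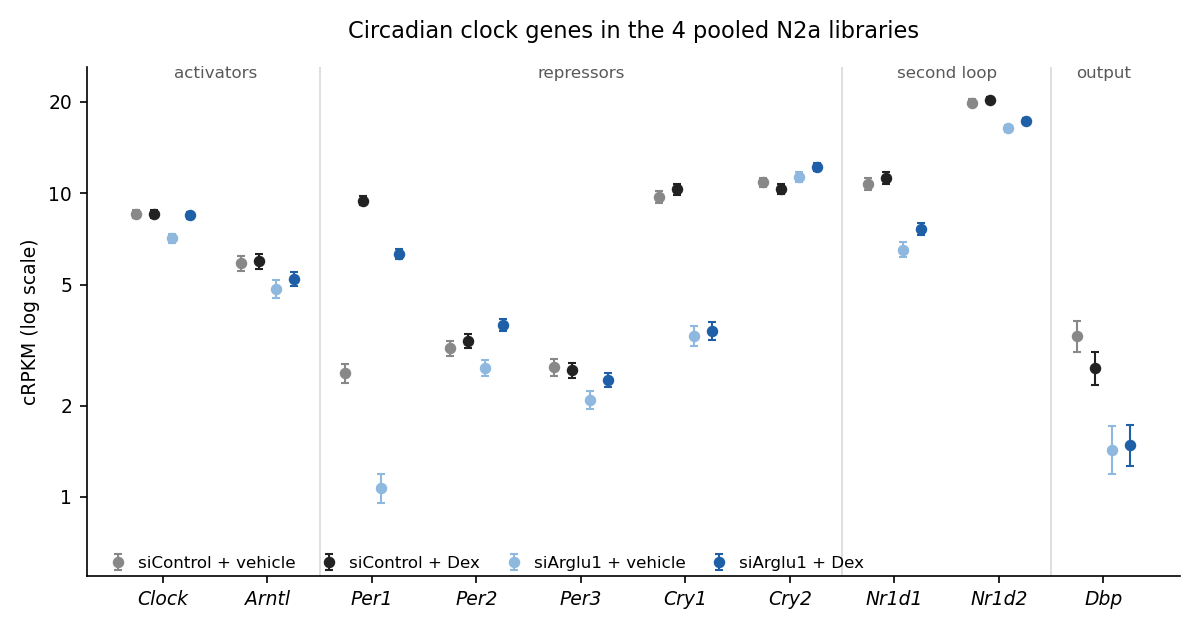
cRPKM (log scale) of the 10 clock genes in the 4 libraries, with bars for the 95% counting interval. Per1 spans the widest range, from 1.07 in siArglu1 Veh to 9.46 in siControl Dex, and Cry1 and Dbp are lower in both siArglu1 libraries than in both siControl libraries.

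To ask which clock genes differed in level between siArglu1 and siControl cells, the log2 ratio of the scaled reads was taken in vehicle and again in Dex; these pairs share no library. A gene was called where the ratio was at least 0.81 on the log2 scale. In vehicle, 3 clock genes were called lower (Per1, Cry1 and Dbp), beside 8.77% of all genes compared. None was called higher, beside 7.0% of all genes. In Dex, 2 were called lower (Cry1 and Dbp), beside 5.93% of all genes, and none higher, beside 6.19%. The median log2 ratio of the 10 genes was -0.28 in vehicle and -0.22 in Dex, against 0.00 for all genes in each pair. The ratio lay below 0 for 9 clock genes in vehicle and 8 in Dex, against 49.7% of all genes in each. The ratio also followed transcript length. Across genes, which are not independent replicates, Spearman's rho with mappable length was -0.398 in vehicle and -0.229 in Dex, and Clock, Per1, Per2, Per3 and Nr1d2 were each longer than at least 81.1% of the genes compared. With this trend removed, Clock, Per2 and Per3 lay above 0 in vehicle (0.18, 0.13 and 0.01) and in Dex (0.18, 0.32 and 0.05). Cry2 was above 0 either way, and Arntl, Per1, Cry1, Nr1d1, Nr1d2 and Dbp stayed below 0 in both pairs. The counts below 0 thus depend in part on length. For the knockdown ratios, values with this trend removed are given beside the genes whose direction depended on it.

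The activators were close to control. Clock, the histone acetyltransferase and DNA-binding partner of ARNTL, had 4207, 4530, 3517 and 5448 reads in library order, or a cRPKM of 8.57, 8.56, 7.11 and 8.47. The siArglu1 Veh library was thus lower than the other three. The log2 ratio of siArglu1 to siControl was -0.24 in vehicle (-0.30 to -0.17) and -0.02 in Dex (-0.08 to 0.03). Clock has a mappable length of 7430 bases, longer than 95.2% of the genes compared, and with the length trend removed its ratio turned to 0.18 in both vehicle and Dex. Arntl, the partner of Clock, had a cRPKM of 5.88 and 5.97 in siControl cells and 4.84 and 5.22 in siArglu1 cells, so both siArglu1 libraries were lower. Its log2 ratio was -0.25 in vehicle (-0.37 to -0.12) and -0.20 in Dex (-0.32 to -0.09), and it kept its sign in all 6 other settings of scaling and trend removal.

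Among the repressors, Cry1 showed the lowest ratios. Cry1 (GRCm38, chr10:85131700-85185064, minus strand) encodes a cryptochrome that, with the PER proteins, blocks the CLOCK and ARNTL pair. It had 1897, 2173, 670 and 901 reads in library order. Its cRPKM was 9.72 (9.29 to 10.2) and 10.3 (9.89 to 10.8) in siControl cells, and 3.40 (3.15 to 3.67) and 3.52 (3.29 to 3.76) in siArglu1 cells, so the siArglu1 libraries did not overlap the siControl libraries. The level in siArglu1 cells was 35.9% of control in vehicle (32.8 to 39.2%) and 34% in Dex (31.4 to 36.7%). The log2 ratios of -1.48 and -1.56 ranked 234 and 128 from the bottom of the 12497 genes. Over all settings the ratio in vehicle stayed between -1.51 and -1.46, and the ratio in Dex between -1.59 and -1.53.

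Its paralog Cry2, a repressor of the same kind, went the other way by a small margin. Cry2 had 2798, 2875, 2933 and 4117 reads in library order, a cRPKM of 10.9, 10.3, 11.3 and 12.2. The log2 ratio was 0.09 in vehicle (0.02 to 0.17) and 0.23 in Dex (0.16 to 0.30), both under the threshold for a call. As a result the balance between the cryptochromes differed. The cRPKM of Cry1 over that of Cry2 was 0.895 in siControl Veh and 0.997 in siControl Dex, against 0.301 and 0.289 in the siArglu1 libraries. The intervals of both siArglu1 libraries, at most 0.328, lay below those of both siControl libraries, at least 0.843.

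Per1 (chr11:69095217-69109960, plus strand), a repressor that forms a complex with the cryptochromes, was lower in siArglu1 cells in both pairs. It had 780, 3116, 330 and 2532 reads in library order, and a cRPKM of 2.55 (2.37 to 2.74), 9.46 (9.13 to 9.80), 1.07 (0.958 to 1.19) and 6.33 (6.09 to 6.58). Both Dex libraries were above both vehicle libraries, and within each treatment siArglu1 was below siControl. The level in siArglu1 cells was 43.0% of control in vehicle (37.7 to 48.9%) and 66.5% in Dex (63.1 to 70.1%), or a log2 ratio of -1.22 and -0.59. Only the ratio in vehicle passed the threshold. With the length trend removed the ratios were -1.0 and -0.49.

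The other Per genes differed less. Per2, which encodes another PER repressor, had 1180, 1346, 1025 and 1850 reads in library order, and a cRPKM of 3.09, 3.27, 2.66 and 3.69. Its log2 ratio of siArglu1 to siControl was -0.18 in vehicle (-0.30 to -0.06) and 0.17 in Dex (0.07 to 0.27), and with the length trend removed it was 0.13 and 0.32, so the sign in vehicle depended on this choice. Per3, whose loss is known to affect rhythms least, had a cRPKM of 2.67 and 2.61 in siControl cells and 2.09 and 2.43 in siArglu1 cells. Its log2 ratio of -0.32 in vehicle (-0.45 to -0.19) went to 0.01 with the length trend removed, and that of -0.11 in Dex (-0.23 to 0.01) to 0.05.

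In the second loop, Nr1d1 was lower in both siArglu1 libraries than in both siControl libraries. It had 1898, 2138, 1161 and 1770 reads in library order, or a cRPKM of 10.8, 11.2, 6.53 and 7.65. The level was 62.1% of control in vehicle (57.7 to 66.9%) and 67.8% in Dex (63.6 to 72.2%). The log2 ratios, -0.69 and -0.56, did not reach the threshold. Nr1d1 shares 263 of its 3077 exonic bases with Thra, a thyroid hormone receptor gene on the other strand, and the library kit does not mark strand, so reads of that stretch cannot be assigned. Thra itself was near control, with -0.05 in vehicle and -0.06 in Dex on the log2 scale. Nr1d2, the other REV-ERB receptor, had a cRPKM of 19.9, 20.3, 16.4 and 17.3 in the same order, with log2 ratios of -0.25 (-0.30 to -0.20) and -0.24 (-0.28 to -0.19). With the length trend removed these were -0.04 and -0.14.

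Dbp (chr7:45705088-45710203, plus strand), a transcription factor of the PAR bZIP family and a direct target of CLOCK and ARNTL, had the fewest reads of the 10 genes, 289, 244, 123 and 166 in library order. Its cRPKM was 3.38 (3.00 to 3.79), 2.65 (2.33 to 3.00), 1.43 (1.19 to 1.71) and 1.48 (1.26 to 1.72), so both siArglu1 libraries were below both siControl libraries. The level in siArglu1 cells was 43.4% of control in vehicle (34.7 to 53.6%) and 55.9% in Dex (45.4 to 68.1%). The log2 ratio of -1.20 in vehicle was past the threshold in every setting; that of -0.84 in Dex lay just past 0.81, with an interval of -1.14 to -0.55, and was -0.80 from the deposited cRPKM and then not called. Dbp shares 539 of its 2993 exonic bases with Sphk2, on the other strand. Sphk2, a sphingosine kinase gene, had log2 ratios of 0.54 and 0.52. Whether reads of the shared bases were counted for Dbp is not known, and their part in its ratio was not tested.

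**Figure D2:**
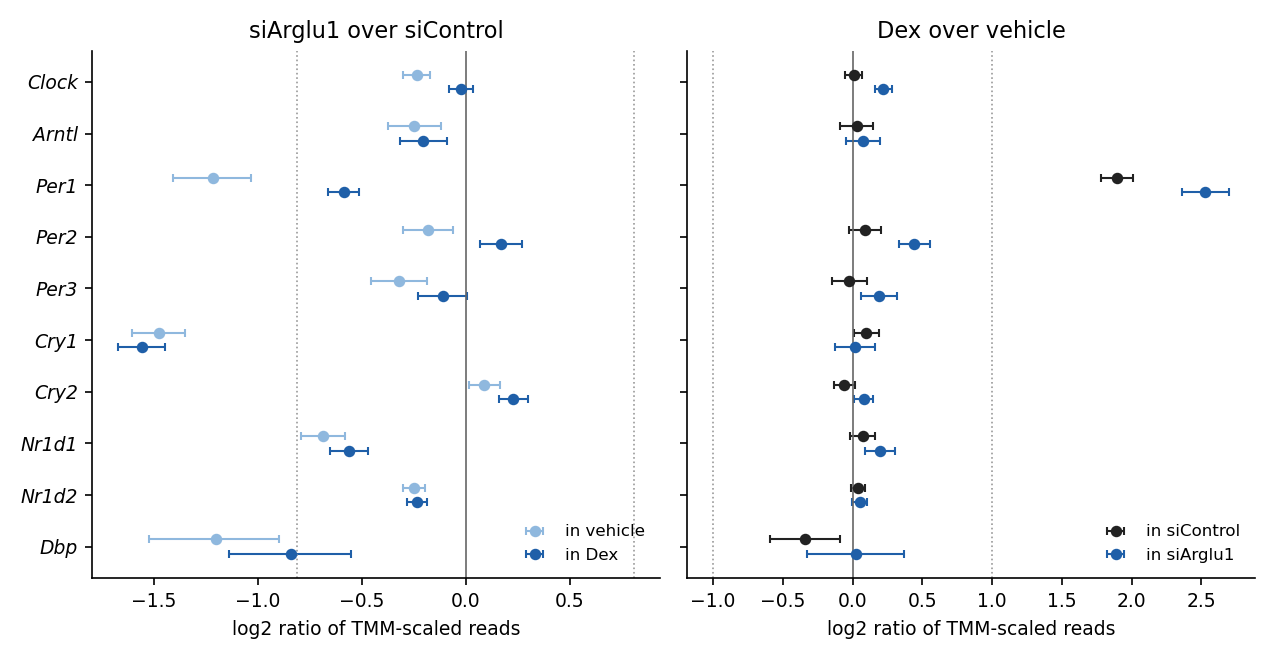
Log2 ratios of siArglu1 over siControl (left) and of Dex over vehicle (right) for the 10 clock genes, with bars for the 95% counting interval and dotted lines at the call thresholds of 0.81 and 1. Cry1 and Dbp lie past the left line in both vehicle and Dex, Per1 only in vehicle, and Per1 alone lies past the right line after Dex, in both siControl and siArglu1 cells.

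To ask which clock genes responded to the hormone, Dex was compared with vehicle in siControl and in siArglu1 cells, with a call at 1 on the log2 scale. Per1 was called higher in both, and no other clock gene was called in either direction. In siControl cells 0.32% of all genes were called higher and 0.144% lower, and in siArglu1 cells 0.328% higher and 0.064% lower, so a call after Dex was rare. The level of Per1 after Dex was 3.73 times that in vehicle in siControl cells (3.45 to 4.04) and 5.76 times in siArglu1 cells (5.14 to 6.49). Its log2 ratios of 1.90 and 2.53 ranked 9 and 4 from the top of the 12497 genes. The median over the 10 clock genes was 0.03 in siControl and 0.13 in siArglu1 cells, against 0.00 for all genes in both.

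The rest of the clock differed less than Per1 after 4 h of Dex. Dbp in siControl cells still stood above only 3.07% of all genes, and Per2 in siArglu1 cells above 96.4%. In siControl cells the log2 ratio of the other 9 genes lay between -0.34 (Dbp, -0.60 to -0.09) and 0.10 (Cry1, 0.01 to 0.19), and for the remaining 7 the interval included 0. In siArglu1 cells it lay between 0.02 (Cry1, -0.13 to 0.16) and 0.44 (Per2, 0.33 to 0.55), the level of Per2 being 136% of that in vehicle. Clock at 0.22, Nr1d1 at 0.20, Per3 at 0.19 and Cry2 at 0.08 also had intervals above 0. In siArglu1 cells the Dex ratio rose with mappable length across genes (Spearman's rho of 0.543; -0.163 in siControl cells). With that trend removed the ratio was 0.31 for Per2, 0.05 for Clock, 0.05 for Per3, 0.02 for Cry2 and 0.21 for Nr1d1. That of Nr1d2 turned from 0.05 to -0.04.

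Because Per1 was both lower in siArglu1 cells and higher after Dex, the ratio of its Dex ratios was taken. The log2 ratio for Dex was larger in siArglu1 than in siControl cells by 0.63 (0.43 to 0.84), above 97.5% of all genes, and by 0.51 with the length trend removed. In cRPKM the order was the other way, since Per1 after Dex exceeded vehicle by 6.91 in siControl cells and by 5.26 in siArglu1 cells. No clock gene reached a difference of 1, beside 0.992% of all genes. The difference was above 0 for 9 of the 10 genes, with a median of 0.17 against 0.01 for all genes, and for 8 with a median of 0.05 when the length trend was removed. That of Nr1d2 turned from 0.01 to -0.10 with this trend removed. Per1 over Per2, by cRPKM, was 0.825, 2.89, 0.402 and 1.72 in library order. Per1 was thus below Per2 in both vehicle libraries and above it in both Dex libraries.

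**Figure D3:**
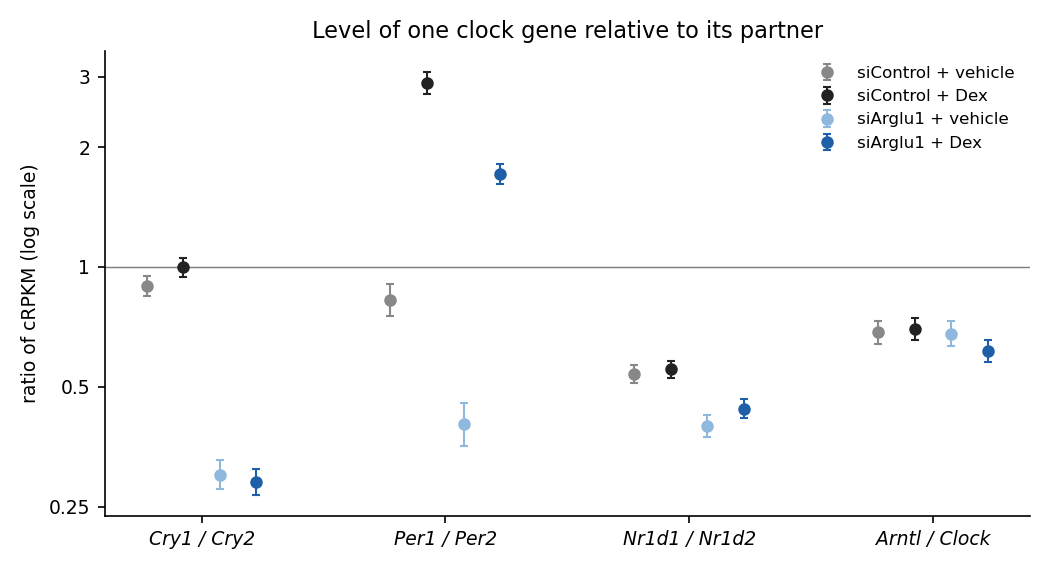
Ratio of cRPKM (log scale) of 4 pairs of clock genes in the 4 libraries, with bars for the 95% counting interval. Cry1 over Cry2 separates siControl from siArglu1 libraries, Per1 over Per2 separates vehicle from Dex, and Arntl over Clock lies between 0.616 and 0.697. The length trend was not removed from these ratios.

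In the second loop Nr1d1 over Nr1d2 was 0.540 and 0.553 in siControl cells and 0.399 and 0.441 in siArglu1 cells, so the siArglu1 libraries were lower. For the activators, Arntl over Clock was 0.686, 0.697, 0.681 and 0.616 in library order, and siArglu1 Dex was the lowest. The length trend was not removed from these ratios. With it removed, the log2 ratio of siArglu1 to siControl was -0.24 in vehicle and -0.20 in Dex for Arntl. For Clock it was 0.18 in both.

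A test over the 4 libraries was made with a model in which knockdown and Dex add on the log scale. It was fitted to all genes with edgeR's quasi-likelihood test and has 1 residual degree of freedom. It takes the Dex effect to be equal with and without knockdown, while for Per1 the Dex ratio differed by 0.63 between siControl and siArglu1 cells. Its p-values rest on departures from adding among 4 pooled libraries, and do not measure the spread between cultures. For knockdown it called 6 clock genes lower at a Benjamini-Hochberg adjusted p of 0.05, beside 30.9% of all genes, and none higher, beside 30.8%. They were Cry1 (log2 change of -1.52, adjusted p = 1.6e-48), Per1 (-0.85, adjusted p = 7.54e-16), Dbp (-1.02, adjusted p = 3.3e-11), Nr1d1 (-0.62, adjusted p = 5.97e-10), Nr1d2 (-0.24, adjusted p = 0.00967) and Arntl (-0.22, adjusted p = 0.0439). The call for Arntl was lost with DESeq2 (adjusted p = 0.156). The vehicle ratio of Nr1d2 was near 0 with the length trend removed, as given above. The other 4 genes, Clock, Per2, Per3 and Cry2, were not called, with adjusted p between 0.0596 (Per3) and 0.996 (Per2). For Dex it called Per1 higher (log2 change of 2.19, adjusted p = 2.59e-92), beside 0.992% of all genes, and no clock gene lower, beside 0.048%. The adjusted p of Per2 for Dex was 0.353, and that of the other 8 genes 0.999.

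**Figure D4:**
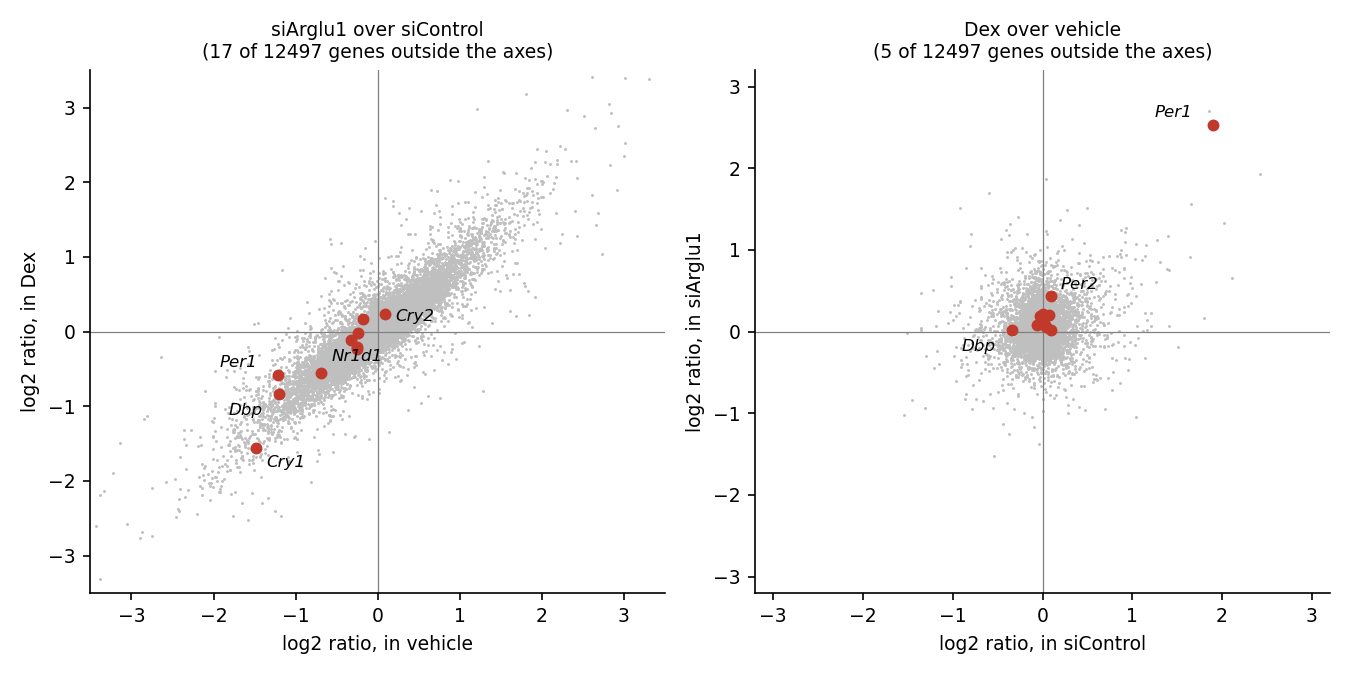
Log2 ratios of all 12497 genes (grey) and the 10 clock genes (red), siArglu1 over siControl in vehicle against Dex (left) and Dex over vehicle in siControl against siArglu1 (right). Per1, Cry1, Dbp and Nr1d1 lie at the lower left for knockdown, and for Dex Per1 is far from the other clock genes. Of these, Per2 in siArglu1 cells stood above 96.4% of all genes and Dbp in siControl cells above 3.07%.

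Other genes of the clock pathway, 39 in all, were followed as 4 lists, and 34 had enough reads. In the knockdown comparisons 4 of the 34 were called lower and none higher in vehicle, beside 8.77% and 7.0% of all genes, and likewise in Dex, beside 5.93% and 6.19%. These counts are small, and nothing particular to the lists is read from them. The median log2 ratio was -0.21 in vehicle and -0.22 in Dex, against 0.00 for all genes. The length trend was not removed from the ratios of these lists, and its part in them was not tested. None of the 34 was called after Dex in siControl or siArglu1 cells, where the ratios lay between -0.19 and 0.29. Among 8 other repressors and D-box factors, 2 were called lower, in vehicle and in Dex. Bhlhe40, a repressor that competes for E-boxes, had 2394 and 2863 reads in siControl cells and 1183 and 1886 in siArglu1 cells, with log2 ratios of -0.99 (-1.10 to -0.89) in vehicle and -0.89 (-0.98 to -0.81) in Dex. Ciart, a repressor of CLOCK and ARNTL activity, had 760 and 873 reads in siControl cells and 389 and 502 in siArglu1 cells, and ratios of -0.94 and -1.09. Among 9 clock-controlled genes and cofactors, 2 were called lower in vehicle and in Dex. Ccrn4l, which encodes the rhythmic phosphatase nocturnin, had ratios of -0.94 and -0.98. Ncor1, the corepressor through which NR1D1 and NR1D2 act, had ratios of -1.30 and -0.99. No call was made among 3 other activators and receptors of the loop (Npas2 and Rora had too few reads) or among 14 clock kinases and ubiquitin ligases.

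The genes whose profile over the 4 libraries was closest to that of Cry1 and of Per1 were found by the Euclidean distance of centred log2 values among 10701 genes. For Cry1 they were Stra6, Sncb and Ywhae, at distances of 0.06, 0.08 and 0.08, with log2 ratios for knockdown in vehicle of -1.44, -1.37 and -1.47. For Per1 the nearest were Rtl1, Th and Crispld2, at distances of 1.17, 1.17 and 1.30. Th, which encodes tyrosine hydroxylase, had a log2 ratio of -1.26 for knockdown in vehicle and of 0.88 and 1.24 for Dex in siControl and siArglu1 cells. Cry1 thus had near neighbours in these data, while the nearest to Per1 lay much farther off.

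The promoters were searched for exact spellings of a few clock and hormone response elements close to the start sites of these genes. Windows of 300 bases, from 250 before a start to 50 after it, were taken from RefSeq (GRCm38.p6). They were given for 9 of the 10 genes, 13 windows in all, and not for Per2. The motifs were chosen after these sequences were seen, and were searched on both strands. They were the E-box CACGTG, the D-box TTATGTAA, TTACGTAA or TTATGCAA, the ROR element TAGGTCA or TGGGTCA that the NR1D receptors read, the cAMP response element TGACGTCA, and the glucocorticoid response element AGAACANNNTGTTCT. Of all 32851 promoter windows, 7.15% held such an E-box, 1.78% a D-box, 6.45% a ROR element, 1.79% a cAMP response element and 0.00913% a glucocorticoid response element. Of the clock genes, Per1, Cry1, Per3 and Arntl held a match, in 1 window each. The windows below are those of Per1, the gene called after Dex, those of Cry1, the gene lowest in siArglu1 cells, and the other 2 with a match, and capitals mark the motifs.
Per1, chr11:69098699-69098998, plus strand: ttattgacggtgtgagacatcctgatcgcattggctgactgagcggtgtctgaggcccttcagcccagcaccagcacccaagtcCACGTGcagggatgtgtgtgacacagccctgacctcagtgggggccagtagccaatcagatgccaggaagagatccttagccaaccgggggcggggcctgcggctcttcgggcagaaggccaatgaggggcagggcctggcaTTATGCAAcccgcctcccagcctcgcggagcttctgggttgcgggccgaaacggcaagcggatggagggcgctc
Per1, chr11:69099902-69100201, plus strand: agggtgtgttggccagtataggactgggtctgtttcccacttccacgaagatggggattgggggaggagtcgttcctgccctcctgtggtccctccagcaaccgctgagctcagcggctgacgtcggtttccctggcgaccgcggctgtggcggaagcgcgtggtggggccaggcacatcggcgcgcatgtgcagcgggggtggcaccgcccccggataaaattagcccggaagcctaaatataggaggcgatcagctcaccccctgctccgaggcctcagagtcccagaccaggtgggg
Cry1, chr10:85185005-85185304, minus strand: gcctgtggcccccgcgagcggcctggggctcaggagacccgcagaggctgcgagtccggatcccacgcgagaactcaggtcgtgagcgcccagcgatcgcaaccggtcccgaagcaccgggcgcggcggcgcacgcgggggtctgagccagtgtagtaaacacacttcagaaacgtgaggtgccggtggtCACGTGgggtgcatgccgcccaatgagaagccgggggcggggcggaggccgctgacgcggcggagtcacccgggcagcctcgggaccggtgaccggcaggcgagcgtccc
Per3, chr4:151044616-151044915, minus strand: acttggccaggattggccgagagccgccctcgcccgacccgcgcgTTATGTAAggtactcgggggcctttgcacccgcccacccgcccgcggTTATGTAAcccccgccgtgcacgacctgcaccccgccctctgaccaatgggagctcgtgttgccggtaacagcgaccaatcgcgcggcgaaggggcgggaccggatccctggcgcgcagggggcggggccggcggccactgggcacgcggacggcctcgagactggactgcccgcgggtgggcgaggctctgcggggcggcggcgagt
Arntl, chr7:113207261-113207560, plus strand: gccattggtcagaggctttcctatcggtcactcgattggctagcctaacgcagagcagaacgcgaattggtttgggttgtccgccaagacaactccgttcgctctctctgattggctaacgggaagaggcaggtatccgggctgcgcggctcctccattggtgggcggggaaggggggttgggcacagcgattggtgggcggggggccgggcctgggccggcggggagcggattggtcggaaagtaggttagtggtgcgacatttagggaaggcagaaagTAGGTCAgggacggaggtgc

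The first Per1 window has an E-box that begins 166 bases before the start and a D-box 24 bases before it, and the other Per1 window, which starts downstream, has no match. The Cry1 window has an E-box 60 bases before the start. The Per3 window has the same D-box letters at 205 and at 158 bases before the start, and the ROR element of Arntl lies after its start. None of the 13 windows held the glucocorticoid or cAMP response element as spelled here. The glucocorticoid spelling is in only 0.00913% of all windows, so its absence cannot show that a gene lacks such an element. By chromatin immunoprecipitation in N2a cells, the paper reports that Dex brought the glucocorticoid receptor to a response element of Per1. This was at an earlier time after Dex than the 4 h of the libraries here. It reports less of this recruitment with siArglu1, and ARGLU1 itself at the element even without Dex. In the libraries here the Dex ratio of Per1 was larger in siArglu1 cells, and receptor binding was not measured. Nr1d1, Nr1d2, Dbp, Clock and Cry2 had no match in their windows. Per1 and Cry1, with an E-box in a window, and Dbp, with none, were all called lower in siArglu1 cells in vehicle. A link between motifs and calls was not tested, and with motifs chosen after the sequences were seen none can be read from this. A match is a string of letters and not a measured site.

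Splicing was the other readout of these genes. PSI, percent spliced in, is the share of a gene's transcripts that carry an exon, or that are cut at a given splice site. The tables held 74 events of the clock genes among 91656. Of these, 46 could be compared, since every library gave a PSI and no more than 1 library had a coverage score under LOW. The 46 were 37 cassette exons, 6 alternative 3' sites and 3 alternative 5' sites, and they included 13 events of Arntl and 12 of Clock but none of Dbp. Of the 37 exons, 12 had a PSI of at least 95 in every library and 4 of at most 5. An event was called where 2 libraries differed by at least 15. For knockdown 1 event was called in vehicle, beside 1.96% of all 57183 events compared, and 1 in Dex, beside 1.52%. For Dex 1 was called in siControl cells, beside 0.719%, and 3 in siArglu1 cells, beside 0.948%. These calls fall on 5 cassette exons, 3 of Clock, 1 of Arntl and 1 of Nr1d2, and no splice site was called. The tables hold no read numbers for exons, so no counting interval can be given for their PSI. The positions are on mm9, and their sequences were not analysed here.

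An Arntl exon of 128 bases at chr7:120418140-120418267 was included less after Dex. Its PSI was 69.7, 51.4, 70.7 and 56.5 in library order, with scores of OK in all but siArglu1 Veh, which had LOW. Both Dex libraries were below both vehicle libraries, by 18.3 in siControl and 14.2 in siArglu1 cells, the second just under the threshold. Another Arntl exon, of 126 bases at chr7:120422971-120423096, had a PSI between 70.4 and 78.8.

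A Clock exon of 90 bases at chr5:76664791-76664880 was the called exon with the best coverage, at OK or SOK in all 4 libraries. Its PSI was 88.7, 74.4, 86.4 and 90.3 in library order. The siControl Dex library stood alone as low, 14.2 below siControl Veh and 15.9 below siArglu1 Dex, so the call for knockdown in Dex rests on it. The other Clock exons rest on siArglu1 Veh, where their score was N, the lowest. One of 60 bases at chr5:76695382-76695441 had a PSI of 100.0, 91.4, 73.3 and 100.0 in the same order, and one of 85 bases at chr5:76702984-76703068 had 84.6, 87.2, 75 and 94.1. The Nr1d2 exon of 267 bases at chr14:19054501-19054767 had 87.3, 88.9, 81.0 and 100.0, and was called for Dex in siArglu1 cells.

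No splicing event was called in Per1 or Cry1, and none of the 3 events of Dbp could be compared. Both cassette exons of Cry1 were constant, one of 72 bases with a PSI of 100.0 in all 4 libraries and one of 44 bases between 0.0 and 3.23. Of 7 Per1 events only 3 exons could be compared, and these had a PSI between 92.8 and 100.0. The level of Cry1 in siArglu1 cells thus differed without a called event among the 3 compared. The called events lie in Clock, Arntl and Nr1d2, whose levels did not pass the thresholds of size. At most 1.96% of all events were called in any pair. With so few events compared in Cry1, Per1 and Dbp, no separation of level and splicing can be read from this.

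**Figure D5:**
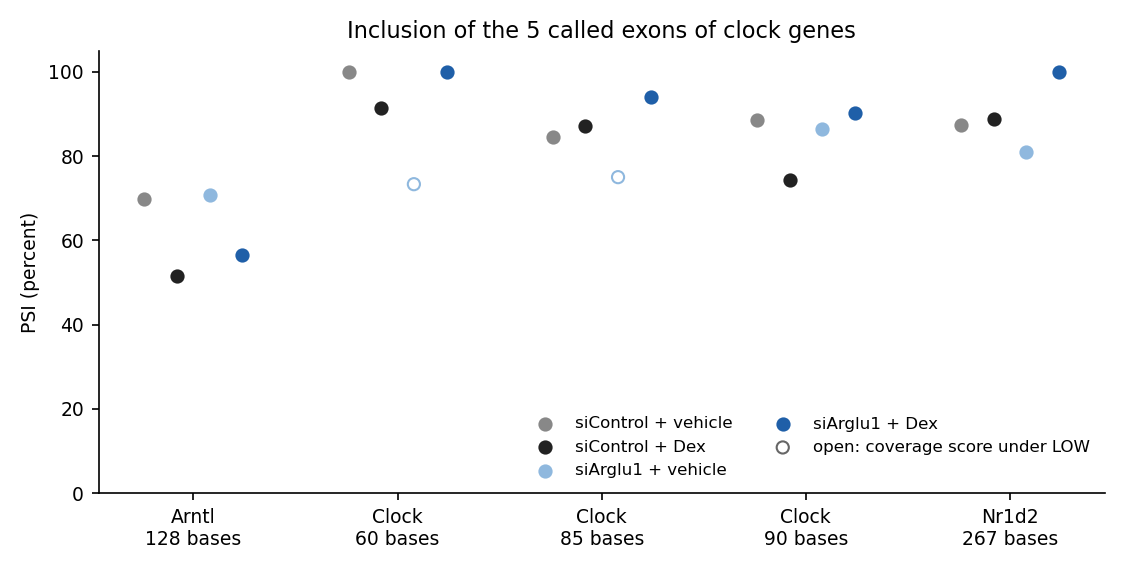
PSI (percent) of the 5 called exons of clock genes in the 4 libraries, with open circles where the coverage score was under LOW. The Arntl exon is lower in both Dex libraries, and the Clock exon of 90 bases is lower in siControl Dex alone.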

How the data were processed

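The authors sequenced 1 polyA-enriched TruSeq V2 library per group, from pooled mRNA of 3 cultures. Per the submitters' processing notes, Bowtie and mm9 were used; the sources used here name neither versions nor annotation. The authors deposited counts of reads per gene, not normalized, and cRPKM, an RPKM per mappable kilobase. They also deposited PSI as a percent with coverage scores in words, for which the paper names vast-tools. The 2 columns of the authors' own ratios were not used.

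Reads were scaled with TMM (edgeR 4.0.16, R 4.3.3), with 1 as the prior count, and 12497 genes whose 4 libraries summed to 75 reads or more were compared. The depth of 66074574 to 86541444 reads sets the exact conditional 95% intervals (scipy 1.17.1), which cover counting error only. The additive model used glmQLFit and glmQLFTest, and DESeq2 1.42.0 as an alternative. Length and GC trends were removed with a lowess of span 0.3. Transcript overlaps came from GENCODE M21. The sites of an alternative splice event counted as 1 event. The additive model, the size rule and the splicing calls were also run on simulated data, which cannot show the spread between real cultures.

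The clock genes and the lists were chosen with earlier results of these data known. Of genes outside the 10, those past the thresholds in both knockdown pairs or in either Dex comparison were named, and the 3 nearest in profile to Per1 and to Cry1.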

Additional observations from a re-analysis of the deposited data

Results flagged for a closer look

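The Dex or knockdown effect of some clock genes went opposite ways in the 2 states it was measured in. With 1 library per group none of these differences was tested. For the log2 ratio of Dex, siArglu1 minus siControl, the difference was 0.21 for Per3 (-0.02 and 0.19), 0.14 for Cry2 (-0.06 and 0.08) and 0.36 for Dbp (-0.34 and 0.02), and in each of these 1 of the 2 counting intervals included 0. With the length trend removed the Per3 ratios were 0.01 and 0.05, both above 0, and differed by 0.04. For knockdown, Dex minus vehicle, it was 0.35 for Per2 (-0.18 and 0.17), whose intervals both left out 0. With the length trend removed the Per2 ratios were 0.13 and 0.32, of the same sign, and differed by 0.19.

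The same was seen in the PSI of called exons. The Clock exon of 90 bases changed by -14.21 with Dex in siControl cells and by 3.88 in siArglu1 cells, a difference of 18.09, which is also the difference of its knockdown effects (-2.21 in vehicle and 15.88 in Dex). That of 60 bases gave -8.57 and 26.67 for Dex, and -26.67 and 8.57 for knockdown, a difference of 35.24. The Clock exon of 85 bases had knockdown effects of -9.62 and 6.89, a difference of 16.51, and the Nr1d2 exon of 267 bases of -6.39 and 11.11, a difference of 17.50.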

How the results depend on the processing

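Of 240 log2 ratios of single clock genes in other settings, 218 stayed within the counting interval and 22 did not, 15 of them with the length trend and 7 with the GC trend removed; none of the called ratios changed sign. The count of clock genes called kept within 1.5 times in all other settings except for knockdown in Dex, where 1 gene (Cry1) was left both from the deposited cRPKM and at a threshold of 1; the cause of the former was not tested. The additive model called 5 clock genes for knockdown with DESeq2 and with no read minimum, each time without Arntl, against 6. Arntl had an adjusted p of 0.156 with DESeq2 and 0.0531 with no minimum.

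The calls of splicing events depended on the settings. Called events in any pair numbered 5, against 16 with no coverage minimum, 1 with OK or better in all libraries, and 1 at a PSI difference of 25. For knockdown in vehicle the count was 7 with no minimum and 0 with OK coverage, and for knockdown in Dex it was 6 with no minimum, 0 at a difference of 25 and 3 at 10. For Dex in siControl cells it was 6 with no minimum, 0 with OK coverage, 0 at 25 and 2 at 10, and for Dex in siArglu1 cells 7, 0, 1 and 5. The OK setting compares 15 events in place of 46.

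No paired analysis was possible because each group has 1 library and thus no replicates to pair by number; the additive model compares knockdown within each treatment and Dex within each siRNA. Without replicates the spread between cultures is unknown, and the PSI of exons carries no read number.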
